A study of Oryza sativa with 15 samples.

Results

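Promoter-proximal DNA that was highly methylated in wild-type rice was followed in regenerated and transgenic plants by whole-genome bisulfite sequencing (WGBS), in which unmethylated cytosines are converted and methylated cytosines are not. The regions described here were selected on measured values: from the regions that the authors called as differentially methylated (DMRs) between a line and wild type, those in CpG context that were annotated to the upstream window of an OS gene and had a mean level of 80% or more in the 3 wild-type libraries. This rule found 352 regions in the CK list, 85 in the SDWT list and 62 in the pOsNAR2.1-OsNAR2.1 list, 499 of the 11392 regions in the 3 lists. They were 33.0% of the 1067 upstream CpG regions of the CK list, 12.7% of 667 in the SDWT list and 7.51% of 826 in the pOsNAR2.1-OsNAR2.1 list. Counting overlapping entries once, there were 478 separate regions, upstream of 465 genes.

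All plants were of the japonica cultivar Wuyujing 7 (WYJ7), and DNA came from shoots of 10-day-old seedlings grown in water. CK plants were T0 plants regenerated from callus on inducing media, without a construct, and the 3 CK libraries came from independent calli. The pOsNAR2.1-OsNAR2.1 plants were T4 plants of 1 transgenic line with extra OsNAR2.1, which encodes a partner protein of high-affinity nitrate transporters, driven by the OsNAR2.1 promoter. SDWT plants, named FP in the deposited labels, were T4 plants that had lost the construct by segregation from a heterozygote of that transgenic material, so they had also been through callus, hygromycin selection and regeneration. WYJ7 was neither regenerated nor transformed. Each group had 3 libraries, and SDWT and pOsNAR2.1-OsNAR2.1 go back to 1 transformed line, so their replicates show the spread within a line and not between transformation events. Beyond the separate calli of CK, the labels do not say whether replicates were separate plants, so p-values measure only the spread between libraries. CK plants were moved to water from rooting medium, whereas the other plants were grown from seed, so generation, growth history and regeneration cannot be told apart between CK and the other groups.

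In plants, CpG methylation is copied to the new strand after replication by the maintenance methyltransferase MET1, and patterns lost in a parent can be inherited through seed. Dense methylation of a promoter is usually found with low transcription, and many methylated upstream stretches lie in or near transposons. Callus culture is known to change methylation in rice, often with loss at promoters. No expression was measured in these libraries.

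The regions were short. Their median width was 33 bp in the CK list, 21 bp in the SDWT list and 28 bp in the pOsNAR2.1-OsNAR2.1 list, with a median of 4, 4 and 3 CpGs in the same order of lists. The annotated upstream windows were at most 2002 bp long, and 349 of 352, 85 of 85 and 62 of 62 regions lay wholly within them. In WYJ7, 92.1% of the single library levels in the CK list, 88.6% in the SDWT list and 89.8% in the pOsNAR2.1-OsNAR2.1 list were 80% or more. The replicates of WYJ7 differed little, with a median SD of 3.13, 3.97 and 4.24 points in the regions of the 3 lists. The number of reads under a region is unknown, and the counting error of its level could not be estimated.

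Levels in these regions were lower in all 3 lines. In the 352 regions of the CK list, the median level was 56.9%, 73.0% and 56.4% in the CK libraries 1, 2 and 3, against 91.7%, 91.5% and 91.5% in the WYJ7 libraries. CK 2 was thus nearest to WYJ7. In the 85 regions of the SDWT list the medians were 62.2%, 60.8% and 60.6% in SDWT and 90.6%, 90.5% and 89.5% in WYJ7. In the 62 regions of the pOsNAR2.1-OsNAR2.1 list they were 66.8%, 63.9% and 66.2% in pOsNAR2.1-OsNAR2.1 and 89.0%, 91.7% and 90.9% in WYJ7. The mean of the library medians was 62.1% ± 9.48 in CK and 91.5% ± 0.101 in WYJ7, 61.2% ± 0.871 in SDWT and 90.2% ± 0.590 in WYJ7, and 65.6% ± 1.54 in pOsNAR2.1-OsNAR2.1 and 90.5% ± 1.38 in WYJ7 (SD, n = 3 libraries each).

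**Figure D1:**
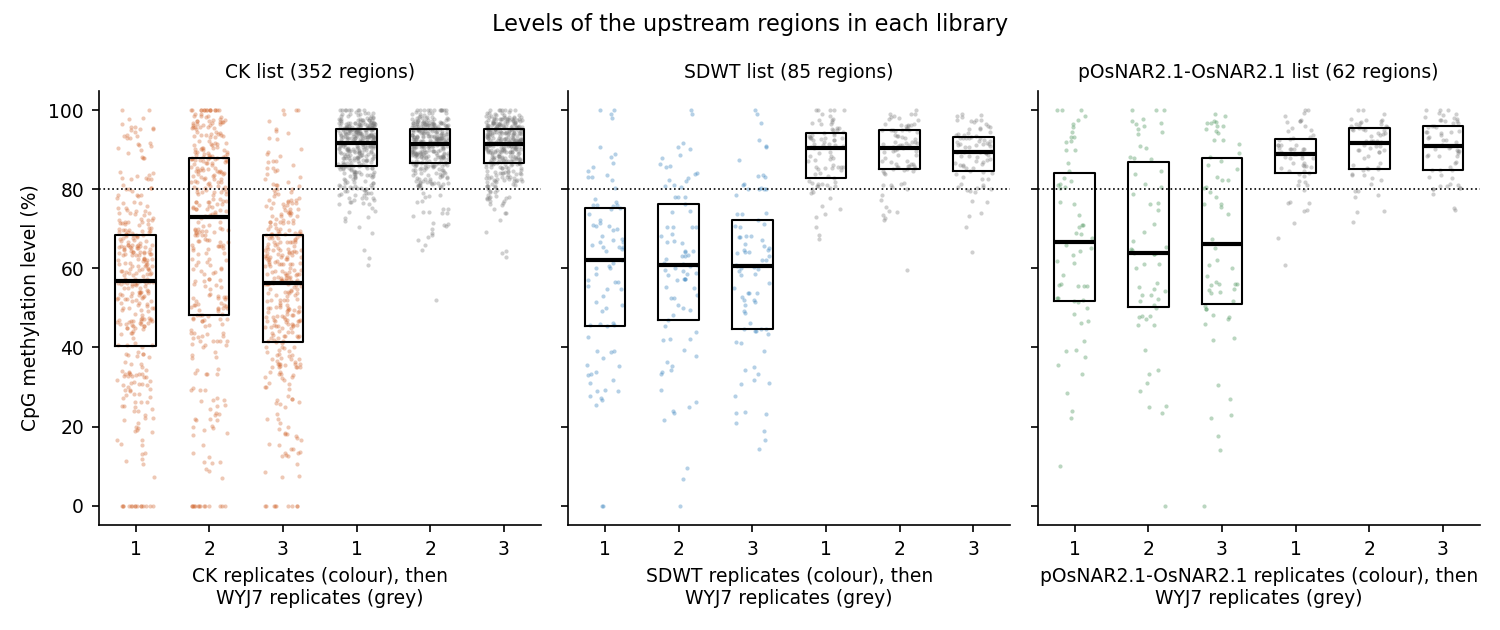
CpG methylation level in percent (y axis) of each region in each library (x axis) for the 3 lists, with the line's replicates in colour left of the WYJ7 replicates in grey. Boxes give the quartiles and the thick line the median, and the dotted line marks 80%. The middle of the colour boxes lay between 56.4% and 73.0%, with CK replicate 2 the highest.

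The lower levels are a description of how these regions were chosen and were not tested. Each region was a called DMR and was required to be high in WYJ7, and a region at 80% can gain at most 20 points. The line mean was lower in 347 of 352 regions in CK, where 71.2% of all regions of the list were lower than WYJ7. It was lower in 81 of 85 in SDWT (48.0% of its whole list) and in 51 of 62 in pOsNAR2.1-OsNAR2.1 (22.3% of its whole list). The median difference from WYJ7 was -30.4 points in CK (range -79.8 to 14.2), -27.3 for SDWT (-63.8 to 16.3) and -26.8 for pOsNAR2.1-OsNAR2.1 (-57.6 to 18.0). A loss of at least 40 points in the mean was found in 90 of 352, 22 of 85 and 15 of 62 regions for CK, SDWT and pOsNAR2.1-OsNAR2.1. The share of the whole lists was not computed for this loss, and a high WYJ7 level leaves the most room for it. In 54, 21 and 24 regions the means of the line and WYJ7 were less than 20 points apart.

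Every library of the line was below every WYJ7 library in 226 of 352 regions for CK (64.2%), against 46.4% of all regions in that list. The counts were 67 of 85 for SDWT (78.8%, against 33.7% of its list) and 38 of 62 for pOsNAR2.1-OsNAR2.1 (61.3%, against 16.9% of its list). The opposite, every library of the line above every WYJ7 library, was found in 2, 2 and 6 regions. The share of the whole lists was not computed for this direction, and a high WYJ7 level leaves little room for a gain. Since the rule used the same contrast, nothing is read from these counts and shares.

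The lower level was often not shared by all libraries of a line. In CK, 89 regions were at least 20 points below the WYJ7 mean in all 3 libraries (25.3%, against 23.3% of all regions in its list), 192 in 2 libraries, 60 in 1 and 11 in none. CK 1 and CK 3 were at least 20 points below WYJ7 in 274 and 275 regions, and CK 2 in 162. In 147 regions CK 1 and CK 3 were below and CK 2 was not, whereas the corresponding count was 21 for CK 1 and 24 for CK 3 as the library that was not below. CK 2 also had losses of its own: it alone was below in 28 regions, CK 1 alone in 14 and CK 3 alone in 18. In SDWT, 33 of 85 regions were lower in all 3 libraries (38.8%, against 23.0% of its list), and the single libraries were lower in 56, 58 and 58 regions. In pOsNAR2.1-OsNAR2.1, 21 of 62 were lower in all 3 (33.9%, against 11.8% of its list), and the single libraries were lower in 38, 35 and 30. The 3 libraries of SDWT and of pOsNAR2.1-OsNAR2.1 were closer to each other in these counts than those of CK. Without CK 2, all remaining CK libraries were below all WYJ7 libraries in 318 regions, against 226 with it. The count was 238 without CK 1 and 236 without CK 3. Leaving out a library cannot lower this count, and the matching share of the whole list was not computed.

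**Figure D2:**
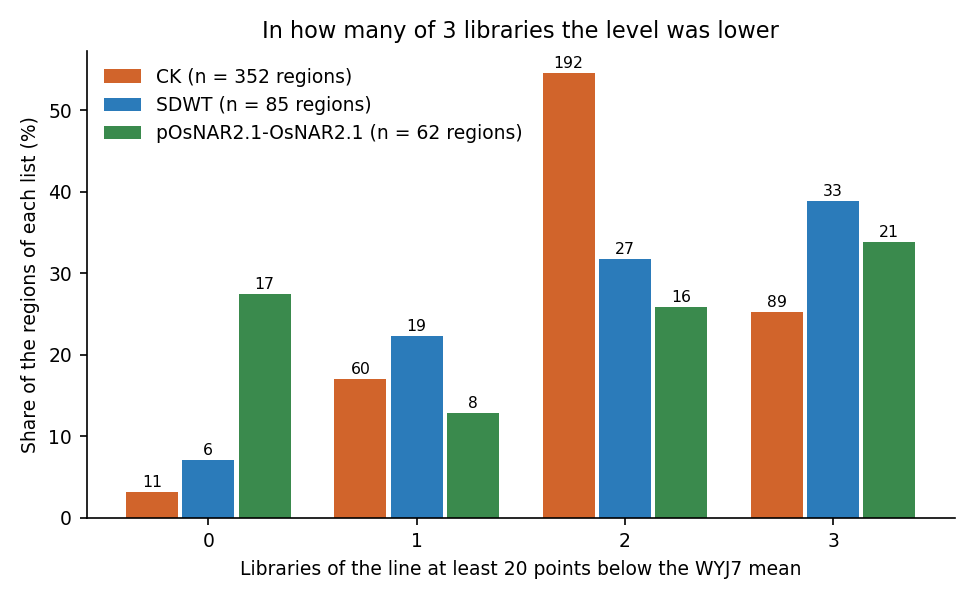
Share of the regions of each list in percent (y axis) by the number of libraries of the line that were at least 20 points below the WYJ7 mean (x axis), with the number of regions above each bar. The highest bar is that of CK at 2 libraries (192 regions), and pOsNAR2.1-OsNAR2.1 had 17 of 62 regions with none.

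In these highly methylated regions, levels varied more between replicates of the lines than between replicates of WYJ7. The median SD was 19.5 points in CK and 3.13 in WYJ7, 13.1 in SDWT and 3.97 in WYJ7, and 10.6 in pOsNAR2.1-OsNAR2.1 and 4.24 in WYJ7. The SD was larger in the line in 323 of 352, 69 of 85 and 49 of 62 regions. A level near 90% leaves little room to vary, and requiring a high mean in WYJ7 also favours a small SD there, so these SDs were not tested against each other. Single libraries of the lines were mostly intermediate. In CK, 28.7% of library levels lay from 40% to under 60% and 29.5% from 60% to under 80%, with 8.14% under 20% and 20.4% at 80% or more. In SDWT the shares were 26.7% and 33.7% in the 2 middle bands, 3.14% under 20% and 19.6% at 80% or more. In pOsNAR2.1-OsNAR2.1, 28.5% and 22.6% lay in those bands, 2.69% under 20% and 35.5% at 80% or more.

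In these 499 regions, complete loss was never shared by all libraries of a line. A level of 0% in at least 1 library was found in 32 regions of CK, 3 of SDWT and 2 of pOsNAR2.1-OsNAR2.1, and none of the 499 regions was at 0% in all 3 libraries of its line. In CK, 6 regions were at 0% in 2 libraries, in each of them CK 1 and CK 3. Of these, chosen after their values were seen, the region upstream of OS05G0433100 (chr5:21231669-21231693, 3 CpGs) was at 0%, 100% and 0% in CK, against 93.5%, 96.4% and 92.6% in WYJ7, and that upstream of OS02G0742900 (chr2:31130098-31130140, 3 CpGs) was also at 0%, 100% and 0% in CK, against 94.2%, 99.3% and 95.7% in WYJ7. In such regions the CK mean is the level of none of the libraries. OS05G0583200 (chr5:29028334-29028343, 3 CpGs), with 0%, 10.9% and 0% in CK, against 77.8%, 82.7% and 90% in WYJ7, was the region with the largest loss of the CK list. In all, 32 CK regions were under 20% in one library and at 80% or more in another. The high library was CK 2 in 19, CK 1 in 6 and CK 3 in 7 of them. The count of such regions was 0 in SDWT and 2 for pOsNAR2.1-OsNAR2.1. Shares of the whole lists were not computed for the regions at 0% or for the split ones. These counts are therefore not read as particular to highly methylated regions.

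The gene identifiers could not be paired with names, because none of the 3183 OS identifiers in the lists matched the RefSeq gene table that was used. Regions are therefore named by position in IRGSP-1.0, the rice genome build of the authors' mapping, and by the identifier of the downstream gene as deposited, without a role. The identifier gives the chromosome in the 2 digits after OS. The deposited windows give no strand, so the distance to the start of the gene is not given.

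In CK, the largest losses among regions with at least 5 CpGs and no overlap with WYJ7 were upstream of OS02G0782500, OS12G0488600, OS05G0579900, OS08G0150600, OS02G0316900 and OS01G0539400. At OS02G0782500 (chr2:33178971-33179011, 5 CpGs) the level was 0%, 70.7% and 0% in CK, against 87.5%, 94.8% and 95.4% in WYJ7, a difference of -69.0 points. The loss there was complete in CK 1 and CK 3 and partial in CK 2. At OS12G0488600 (chr12:18300543-18300625, 6 CpGs) it was 0%, 40.7% and 8.57% in CK, against 83.3%, 81.5% and 88.4% in WYJ7 (-68.0 points). At OS05G0579900 (chr5:28863063-28863117, 8 CpGs) the 3 CK libraries agreed, with 39.0%, 29.3% and 35.9%, against 90.3%, 89.4% and 91.9% in WYJ7 (-55.8 points).

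The other 3 of these CK regions were intermediate in most libraries. At OS08G0150600 (chr8:2914468-2914508, 5 CpGs) the level was 44.1%, 7.03% and 31.8% in CK and 69.0%, 90.3% and 87.7% in WYJ7. At OS02G0316900 (chr2:12568905-12568968, 7 CpGs) it was 25.3%, 50.8% and 52.3% in CK and 93.9%, 90.7% and 96.5% in WYJ7. At OS01G0539400 (chr1:19822478-19822523, 5 CpGs) it was 54.1%, 12.2% and 31.1% in CK and 78.6%, 86.4% and 83.7% in WYJ7. CK 2 was the lowest CK library at OS08G0150600 and OS01G0539400. OS01G0539400 had a further pair of CK DMRs in the same upstream window, with WYJ7 means of 70.2% and 71.0%, under the threshold, and both had a lower mean in CK. One (chr1:19822391-19822413) had a CK mean of 26.7% and the other (chr1:19822560-19822567) a CK mean of 9.88%.

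In SDWT, the same rule gave OS02G0465600, OS02G0699433, OS12G0538800, OS10G0407400, OS05G0500300 and OS03G0266100. At OS02G0465600 (chr2:15661914-15661951, 5 CpGs) the level was 39.2%, 34.4% and 35.1% in SDWT, against 79.2%, 81.2% and 86.2% in WYJ7, a difference of -45.9 points with close replicates in both groups. At OS02G0699433 (chr2:28767468-28767482, 5 CpGs) it was 0%, 52.5% and 68.1% in SDWT, against 90.8%, 81.5% and 79.9% in WYJ7, so the mean difference of -43.9 points rested mainly on SDWT 1. The region with the most CpGs in the SDWT list lay upstream of OS05G0500300 (chr5:24622951-24623045, 13 CpGs), with 45.8%, 59.3% and 51.4% in SDWT and 85.7%, 87.1% and 85.3% in WYJ7.

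The remaining SDWT regions were between 30.6 and 34.7 points lower in the mean. OS12G0538800 (chr12:21487828-21487852, 5 CpGs) had 67.5%, 55.3% and 39.2% in SDWT and 89.3%, 89.5% and 87.2% in WYJ7. OS10G0407400 (chr10:13944556-13944601, 8 CpGs) had 56.5%, 59.5% and 65.1% in SDWT and 94.1%, 96.1% and 93.5% in WYJ7. OS03G0266100 (chr3:8795899-8795921, 6 CpGs) had 70.9%, 39.4% and 71.2% in SDWT and 92.5%, 93.0% and 87.7% in WYJ7. At OS10G0407400 all SDWT libraries were close together, and at OS03G0266100 SDWT 2 was the lowest and all 3 SDWT libraries were below all WYJ7 libraries.

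In pOsNAR2.1-OsNAR2.1 the regions were upstream of OS07G0575500, OS11G0245100, OS02G0211100, OS03G0603500, OS02G0551801 and OS08G0491200, and no library was under 47% in any of them. OS07G0575500 (chr7:23277410-23277438) held 10 CpGs in 29 bp, with 65.8%, 47.1% and 47.2% in pOsNAR2.1-OsNAR2.1, against 85.9%, 83.7% and 97.7% in WYJ7 (-35.8 points). OS11G0245100 (chr11:7790361-7790469, 10 CpGs) had 70.9%, 60.2% and 49.6% in pOsNAR2.1-OsNAR2.1, against 92.6%, 95.6% and 94.4% in WYJ7 (-34.0 points). OS03G0603500 (chr3:22611442-22611527, 11 CpGs) had 71.0%, 51.7% and 62.1% in pOsNAR2.1-OsNAR2.1, against 88.0%, 95.2% and 94.8% in WYJ7 (-31.1 points). In all 3 the levels remained intermediate in every transgenic library.

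OS02G0211100 (chr2:6204658-6204707, 5 CpGs) had 58.2%, 69.2% and 53.9% in pOsNAR2.1-OsNAR2.1 and 93.1%, 92.1% and 92.0% in WYJ7. OS02G0551801 (chr2:20780980-20781023, 6 CpGs) had 52.6%, 50.6% and 65.2% in pOsNAR2.1-OsNAR2.1 and 81.1%, 83.7% and 89.8% in WYJ7. OS08G0491200 (chr8:24272482-24272512, 6 CpGs) had 52.0%, 71.3% and 53.7% in pOsNAR2.1-OsNAR2.1 and 83.8%, 85.2% and 83.6% in WYJ7. These were between 25.2 and 31.9 points lower, and 1 library stayed nearer to WYJ7 in each of the last pair.

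**Figure D3:**
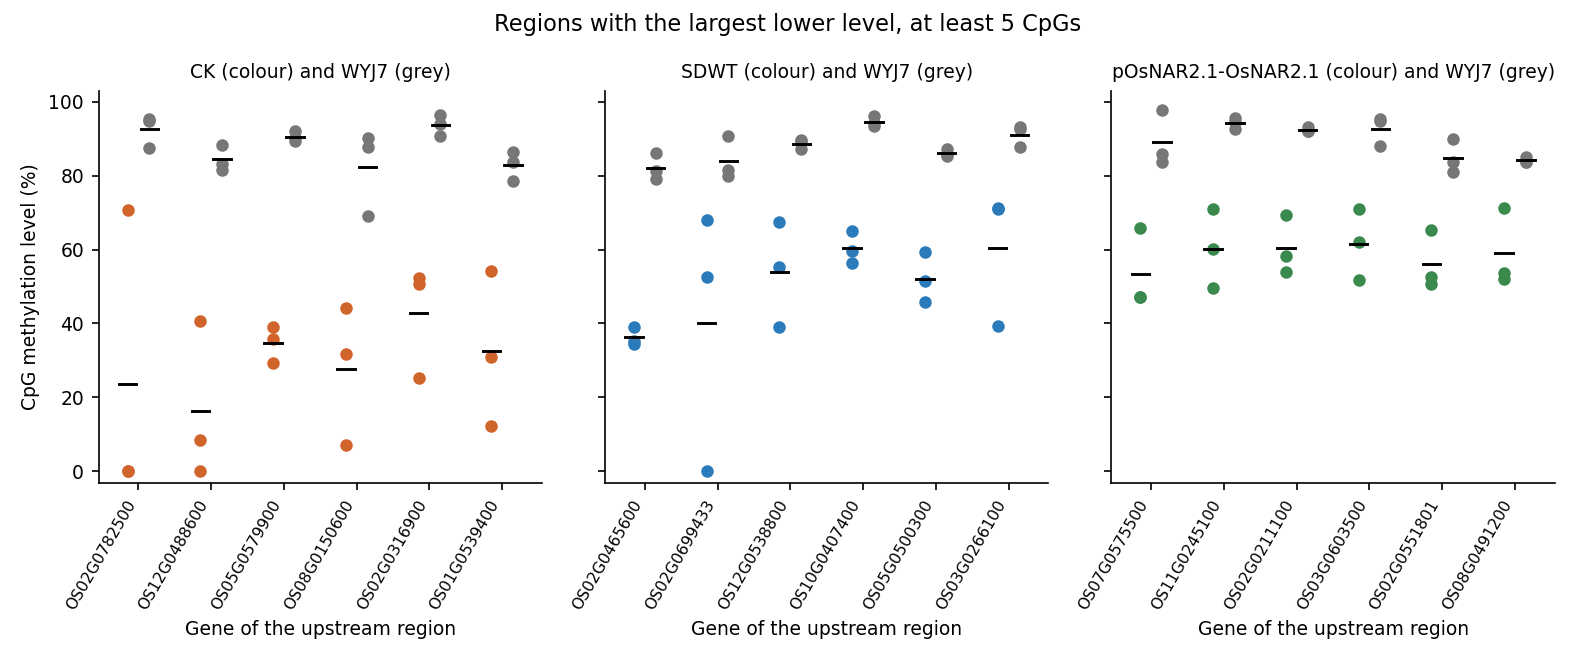
CpG methylation level in percent (y axis) in each library for the 6 regions with the largest loss in each list among those with at least 5 CpGs and no overlap with WYJ7 (x axis, gene of the upstream region). Line libraries (colour) stand left of WYJ7 libraries (grey), and short bars are means. CK points spread from 0% to 70.7% at OS02G0782500, while those at OS05G0579900 lay between 29.3% and 39.0%.

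There were 18 regions with 10 or more CpGs, 12 in the CK list and 3 in each of the others. Chosen after their values were seen, the region with 18 CpGs upstream of OS02G0207800 (chr2:6036662-6036750) was at 72.2%, 0% and 86.2% in CK, against 92.7%, 91.6% and 77.5% in WYJ7, so CK 2 alone was at 0%. By contrast OS02G0123100 (chr2:1205832-1205890, 14 CpGs) was even, at 46.8%, 43.5% and 45.5% in CK, against 80.8%, 87.0% and 75.1% in WYJ7. The median difference was -33.0 points in regions with 3 CpGs and -29.1 in those with 5 or more for CK. These medians were -26.7 and -27.6 for SDWT, and -21.3 and -27.0 for pOsNAR2.1-OsNAR2.1.

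Several genes had a pair of such regions in 1 list, 7 in CK, none in SDWT and 2 for pOsNAR2.1-OsNAR2.1. The regions upstream of OS05G0113500 (chr5:722522-722539 and chr5:722567-722582, 3 CpGs each) were in both lists with the same coordinates. The first was at 24.5%, 45.5% and 35% in CK and at 22.2%, 47.9% and 56.6% in pOsNAR2.1-OsNAR2.1, against 95.1%, 92.2% and 100% in WYJ7. The second was at 25.1%, 27.2% and 35% in CK and at 10.0%, 56.2% and 60.7% in pOsNAR2.1-OsNAR2.1, against 100%, 96.4% and 100% in WYJ7. These neighbouring regions may be covered by the same reads and are not independent.

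In the other 6 CK genes the paired regions were both lower in mean. Upstream of OS01G0300000, the region chr1:10992348-10992466 (7 CpGs) was at 53.1%, 86.7% and 56.1% in CK, against 95.2%, 94.5% and 92.4% in WYJ7, and chr1:10993161-10993192 (3 CpGs) was at 20%, 87.8% and 18.1% in CK, against 92.8%, 97.1% and 95.1% in WYJ7. CK 2 was the high library in both. The same held at OS02G0113300 (chr2:716732-716739 and chr2:717047-717054), where CK 2 was at 93.3% and 87.1% and the other CK libraries were between 50.2% and 64.0%. It also held at OS11G0141000, where chr11:1893597-1893638 (8 CpGs) was at 0%, 88.7% and 41.3% in CK, against 89.6%, 92.4% and 86.9% in WYJ7, and chr11:1894435-1894480 was at 31.3%, 75.1% and 45.7% in CK, against 83.9%, 96.0% and 96.2% in WYJ7.

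Of the 3 remaining CK genes, OS03G0777700 and OS12G0263800 differed between their paired regions in which library was highest, and OS05G0446600 did not. At OS03G0777700, CK 3 was the lowest library in chr3:32256832-32256888 with 30.0% and the highest in chr3:32256989-32257025 with 65.1%. At OS12G0263800, CK 2 was at 97.5% in chr12:9318818-9318857 and CK 3 was the highest in chr12:9318907-9318949 with 62.6%. At OS05G0446600, the CK levels in chr5:21897080-21897124 lay between 64.9% and 70.3%, and in chr5:21897211-21897250 between 57.0% and 82.6%, with CK 2 the highest in both. The second transgenic pair was at OS03G0145900, where chr3:2546828-2546845 was at 51.8%, 87.7% and 83.2% and chr3:2546915-2546932 at 37.7%, 64.0% and 82.5% in pOsNAR2.1-OsNAR2.1, with replicate 1 the lowest in both.

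A higher mean in the line was found in 20 of the 499 regions, 5 in CK, 4 in SDWT and 11 for pOsNAR2.1-OsNAR2.1, and 17 of the 20 held 3 CpGs. Regions with 3 CpGs made up 34.9%, 30.6% and 53.2% of the highly methylated regions in these lists. The largest gains, chosen after their values were seen, were OS06G0267200 (chr6:8870440-8870484, 3 CpGs), OS02G0202900 (chr2:5759755-5759807, 4 CpGs) and OS11G0298400 (chr11:11012516-11012559, 6 CpGs) in pOsNAR2.1-OsNAR2.1. OS06G0267200 was at 98.7%, 96.6% and 98.9% in pOsNAR2.1-OsNAR2.1, against 67.7%, 92.3% and 80.1% in WYJ7. OS02G0202900 was at 100%, 94.1% and 98.5% in pOsNAR2.1-OsNAR2.1, against 76.5%, 84.9% and 80.4% in WYJ7. OS11G0298400 was at 96.5%, 97.7% and 96.8% in pOsNAR2.1-OsNAR2.1, against 81.0%, 71.8% and 88.4% in WYJ7. In each, the transgenic libraries were close together near 100% and WYJ7 was the more variable group. OS12G0177500 (chr12:3931826-3931841, 4 CpGs) was higher in CK, with 93.6%, 97.0% and 94.7%, against 84.7%, 80.9% and 77.0% in WYJ7, and OS03G0749650 (chr3:30888946-30888982, 3 CpGs) was higher in SDWT, with 98.0%, 98.9% and 96.8%, against 89.3%, 81.5% and 73.9% in WYJ7.

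The threshold separated regions with near-equal WYJ7 levels. Just inside it in CK were OS06G0334100, OS11G0637600 and OS01G0834500, with WYJ7 means of 80.1%, 80.3% and 80.4% and CK means of 51.5%, 57.7% and 40.7%. Just outside were OS01G0288200, OS03G0210600 and OS05G0163900, with CK means of 45.3%, 34.4% and 98.3%, against WYJ7 means of 79.9%, 79.9% and 79.7%. In SDWT, OS08G0511800, OS03G0307700 and OS03G0377100 were just inside, at 86.4%, 53.6% and 40.4% in SDWT. OS03G0422200, OS05G0128100 and OS03G0333300 were just outside, at 27.2%, 36.3% and 46.0% in SDWT. In pOsNAR2.1-OsNAR2.1, OS06G0267200, OS08G0511800 and OS03G0195100 were just inside, at 98.1%, 93.8% and 89.9% in the line, all higher than WYJ7. OS01G0636400, OS01G0512100 and OS02G0774300 were just outside, at 95.3%, 41.1% and 51.0% in the line. At OS06G0334100, WYJ7 2 was at 52.1% and the other WYJ7 libraries were above 90%, the largest WYJ7 SD in the CK regions (24.3 points).

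The other upstream CpG regions of the lists were compared as a description. Regions with a WYJ7 mean from 20% to under 80% had a median difference of -23.0 points in CK (526 regions), 12.3 in SDWT (368 regions) and 25.6 in pOsNAR2.1-OsNAR2.1 (448 regions). The share with a lower mean was 64.6%, 48.4% and 18.1% in these 3 lists. In regions under 20% the median differences were 23.4, 25.2 and 24.2 points (189, 214 and 316 regions). The 3 lines were thus alike in direction at the highly methylated and at the sparsely methylated regions, where the choice on WYJ7 largely fixes it, and unlike at the intermediate ones. CK 2 was also nearest to WYJ7 in the other classes, with a median difference of -16.4 points in the highly methylated, -13.5 in the intermediate and 13.6 in the sparsely methylated regions. CK 1 had -32.3, -21.8 and 23.2 points and CK 3 had -34.5, -22.8 and 25.5 points. Replicate spread also differed by class. In intermediate regions the median SD was 11.7 points in CK and 10.3 in WYJ7. There it was smaller in the T4 lines, with 5.53 in SDWT against 13.5 in WYJ7, and 5.78 in pOsNAR2.1-OsNAR2.1 against 11.3. In regions under 20% it was larger in all 3 lines, with 14.9, 10.3 and 9.41 points against 3.45, 3.52 and 0.994 in WYJ7. These SDs were not tested.

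**Figure D4:**
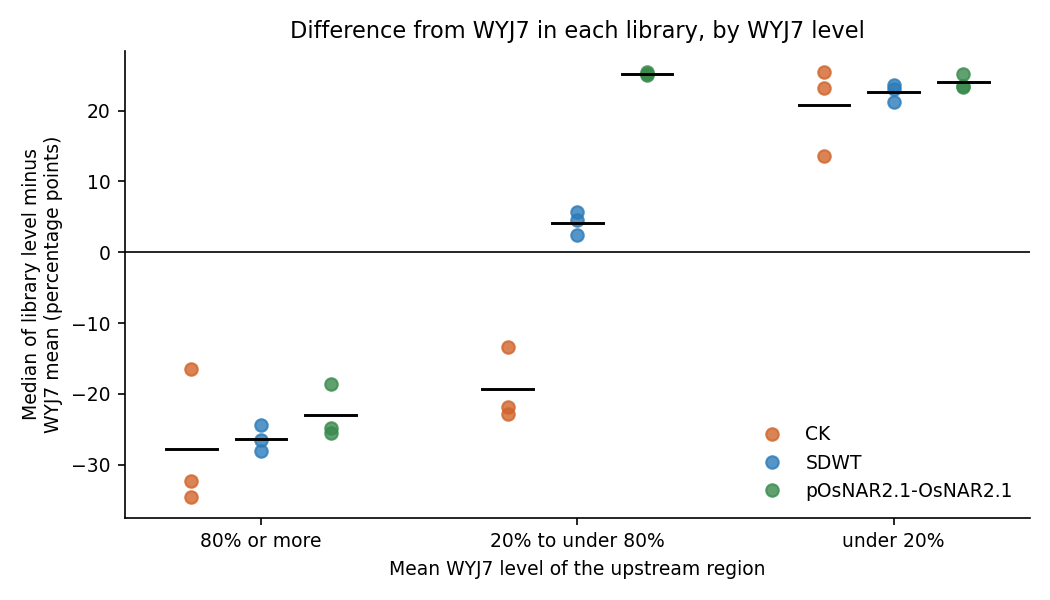
Median over regions of the library level minus the WYJ7 mean, in percentage points (y axis), for each library of the 3 lines in upstream regions grouped by their WYJ7 mean (x axis). Points are libraries and bars their mean. At 20% to under 80% the pOsNAR2.1-OsNAR2.1 libraries lay near 25 points and the CK libraries between -22.8 and -13.5.

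Width and CpG density were close between the classes of one list. The median width was 33, 28 and 26 bp in CK, 21, 19 and 20 bp in SDWT, and 28, 27 and 27 bp in pOsNAR2.1-OsNAR2.1, for highly, intermediately and sparsely methylated regions. CpGs per 100 bp had a median of 12.5, 14.3 and 13.6 in CK, 19.0, 20.2 and 19.1 in SDWT, and 12.97, 15 and 14.3 in pOsNAR2.1-OsNAR2.1 for these classes. Regions of the SDWT list were thus shorter and denser in all classes. By chromosome, the highly methylated share of the upstream regions ranged in CK from 16.4% on chromosome 10 (10 of 61) to 41.2% on chromosome 8 (33 of 80). In SDWT it ranged from 8.06% on chromosome 5 (5 of 62) to 25% on chromosome 8 (10 of 40), and in pOsNAR2.1-OsNAR2.1 from 3.39% on chromosome 10 (2 of 59) to 11.7% on chromosome 8 (7 of 60).

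Other DMRs at the same genes were few and all in CpG context. There were 18 in CK, of which 16 were lower than WYJ7, 5 in SDWT, of which 1 was lower, and 6 in pOsNAR2.1-OsNAR2.1, of which 2 were lower. Over all regions of these lists, 71.2%, 48.0% and 22.3% were lower. With so few regions, nothing is read from the counts. Chosen after their values were seen, a second upstream region of OS08G0344300 (chr8:15571068-15571097, 7 CpGs) was at 69.7%, 56.3% and 67.8% in SDWT, against 0%, 0% and 27.2% in WYJ7. Of the other upstream CK regions at OS05G0221400, one (chr5:7461124-7461143, 3 CpGs) was at 0% in all 3 CK libraries, against 47.5%, 46.5% and 75% in WYJ7, and one (chr5:7462123-7462142, 4 CpGs) was at 13.04%, 64.0% and 22.2% in CK, against 0%, 11.6% and 0% in WYJ7. A highly methylated region and a gain could therefore stand in the same upstream window.

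To compare the lines with each other, regions of 2 lists that overlapped by at least 1 bp were used. The overlap was partial in some pairs, so the levels of the lines do not always come from the same cytosines. There were 6 such pairs of regions for CK and SDWT, 4 for pOsNAR2.1-OsNAR2.1 and SDWT, and 11 for pOsNAR2.1-OsNAR2.1 and CK. The lists share their WYJ7 libraries, so the occurrence of a region in both is not read as a result. No gene had a member in all 3 lists, and 25 genes had members in 2, of which 5 had members that did not overlap and lay 275 to 669 bp apart. The difference between lines was tested with a two-sided exact permutation test of the library medians, which with 3 against 3 libraries cannot give a p under 0.1. Each library median was taken over the shared regions without pairing them, so the regions that set it can differ between the lines.

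For pOsNAR2.1-OsNAR2.1 and CK, the median level over the 11 regions was 55.6%, 53.2% and 56.6% in pOsNAR2.1-OsNAR2.1 and 25.1%, 59.1% and 35% in CK. The mean was 55.1% ± 1.71 in pOsNAR2.1-OsNAR2.1 and 39.7% ± 17.5 in CK (SD, n = 3 libraries), and the difference of 15.4 points was not larger than the spread between CK libraries (exact permutation p = 0.4, adjusted p = 0.5 over the 3 pairs of lines). CK 2 lay above all 3 transgenic libraries and CK 1 and CK 3 below all of them. As a mean over the 11 regions the difference was 10.1 points. Without CK 2 the difference was 25.1 points, and without CK 1 it was 8.07 points.

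The mean was lower than in WYJ7 in both lines at all 11 regions, although the difference was only -0.13 points at OS02G0590200 in pOsNAR2.1-OsNAR2.1. The choice of the regions largely fixes this direction, so it is not read as agreement between the lines. Of all highly methylated upstream regions, 98.6% were lower in the CK list and 82.3% in the pOsNAR2.1-OsNAR2.1 list. The neighbouring regions of OS05G0113500 were both among the 11. OS10G0419500 (chr10:14760544-14760555, 3 CpGs) was at 48.5%, 25.2% and 22.9% in pOsNAR2.1-OsNAR2.1 and 7.27%, 55.2% and 19.4% in CK, against 82.2%, 86.6% and 84.95% in WYJ7. OS03G0711300 (chr3:28718082-28718155, 3 CpGs) was at 35.7%, 39.4% and 55.9% in pOsNAR2.1-OsNAR2.1 and 18.8%, 20.1% and 35.7% in CK, against 87.9%, 97.7% and 88.5% in WYJ7. OS07G0575500, described above, was at 56.9%, 49.8% and 61.8% in CK, within the range of the transgenic libraries. At OS03G0145900 (chr3:2546915-2546932, 4 CpGs) CK was split, with 15.4%, 91.3% and 20%, whereas pOsNAR2.1-OsNAR2.1 had 37.7%, 64.0% and 82.5%.

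The means of the lines were farthest apart at OS02G0590200 and OS04G0567700. At OS02G0590200 (chr2:22791872-22791911 in the transgenic list, 3 CpGs, and 1 bp longer with 6 CpGs in the CK list), pOsNAR2.1-OsNAR2.1 was at 100%, 80.5% and 97.3% and CK at 54.0%, 59.1% and 64.4%, against 84.6%, 94.4% and 99.2% in WYJ7 over the transgenic coordinates. This was the only one of the 11 in which the libraries of the lines did not overlap (exact permutation p = 0.1 for this region alone, n = 3 libraries each). At OS04G0567700 (chr4:28521530-28521592 in CK), CK was at 21.6%, 96.3% and 7.33% and the overlapping transgenic region at 80.6%, 45.7% and 67.3%, against 76.5%, 74.5% and 94.5% in WYJ7 over the transgenic coordinates. The means were close at OS05G0458400, where libraries varied in all groups. At OS05G0458400 (chr5:22516445-22516458, 3 CpGs), pOsNAR2.1-OsNAR2.1 was at 55.6%, 54.9% and 42.4% and CK at 55.6%, 79.3% and 25%, while WYJ7 itself was at 61.0%, 94.3% and 95.9%. The last pair, OS02G0768750 and OS06G0157000, had means of 71.7% and 60.9% in pOsNAR2.1-OsNAR2.1 and 66.7% and 68.7% in CK, against 90.6% and 90.3% in WYJ7.

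For CK and SDWT the median over the 6 regions was 59.7%, 73.1% and 46.1% in CK and 43.0%, 61.5% and 52.0% in SDWT. The means were 59.6% ± 13.5 in CK and 52.2% ± 9.23 in SDWT (SD, n = 3 libraries), and the difference of 7.48 points was not distinguishable from the spread (exact permutation p = 0.5, adjusted p = 0.5). Over regions with at least 50% reciprocal overlap it was 4.83 points, and as a mean over the 6 regions it was 4.92 points. Without CK 2 it was 0.736 points and without CK 3 it was 14.2 points. At OS02G0759400 (chr2:31966792-31966811 in CK, 3 CpGs), CK was at 69.7%, 78.7% and 76.1% and SDWT at 31.8%, 58.8% and 60.0%, against 91.0%, 85.3% and 89.5% in WYJ7. This was the only region of the 6 in which the libraries of CK and SDWT did not overlap. At OS11G0166100 (chr11:3177122-3177185 in CK, 7 CpGs) CK ranged from 15.5% to 97.2% and SDWT from 43.9% to 73.8%, against 91.8% to 94.4% in WYJ7 over the CK coordinates.

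The other 4 regions of CK and SDWT overlapped between the lines. OS01G0852500 had means of 51.1% in CK and 64.1% in SDWT, OS04G0663600 of 58.4% and 65.8%, OS08G0393600 of 60.1% and 55.8%, and OS11G0637600 of 57.7% and 40.4% in the same order, all under their WYJ7 means of 80.3% to 93.1%.

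For pOsNAR2.1-OsNAR2.1 and SDWT the median over the 4 regions was 93.9%, 97.2% and 92.6% in pOsNAR2.1-OsNAR2.1 and 79.6%, 81.5% and 85.3% in SDWT. The means were 94.6% ± 2.39 and 82.2% ± 2.86 in these lines (SD, n = 3 libraries). All transgenic library medians were above all SDWT library medians, with a difference of 12.4 points and an exact permutation p = 0.1, the smallest that this design allows (adjusted p = 0.3). The difference partly set one region against another. In replicate 1, the transgenic median lay between OS01G0919800 and OS08G0511800, and the SDWT median between OS11G0245100 and OS08G0511800. By single region, the transgenic mean was higher than the SDWT mean in 2 of the 4 and lower in the rest. It was 42.7 points higher at OS01G0919800 and 7.41 points higher at OS08G0511800. The differences were -0.71 points at OS09G0441250 and -17.7 points at OS11G0245100. Only 2 of the 4 regions overlapped over at least 50% of both lengths, and over those the difference was 3.35 points (exact permutation p = 0.2). As a mean over the 4 regions the difference was 7.94 points.

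These 4 regions behaved differently from each other. At OS01G0919800 the transgenic region (chr1:40143781-40143830, 3 CpGs) was at 93.3%, 100% and 92.6% in pOsNAR2.1-OsNAR2.1, against 86.6%, 81.4% and 80.2% in WYJ7. The overlapping SDWT region (chr1:40143814-40143830, 4 CpGs) was at 56.6%, 52.5% and 48.7% in SDWT, against 91.4%, 73.6% and 77.0% in WYJ7. They share 17 bp. At OS11G0245100 both were lower than WYJ7, and the overlap was 5 bp. The transgenic region, given above, had a mean of 60.2% and the SDWT region (chr11:7790465-7790537, 10 CpGs) was at 76.2%, 74.4% and 83.1% in SDWT, against 97.1%, 96.4% and 94.5% in WYJ7.

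The last pair of regions had the same coordinates in both lists and a higher mean in both lines. OS08G0511800 (chr8:25387569-25387591, 3 CpGs) was at 94.4%, 94.4% and 92.6% in pOsNAR2.1-OsNAR2.1 and 83.1%, 88.7% and 87.4% in SDWT, against 85.4%, 74.4% and 81.1% in WYJ7. OS09G0441250 (chr9:16361133-16361157, 3 CpGs) was at 100%, 100% and 95.9% in pOsNAR2.1-OsNAR2.1 and 99.0%, 100% and 99.0% in SDWT, against 92.7%, 97.5% and 89.7% in WYJ7. Their mean differences from WYJ7 were between 5.34 and 13.5 points.

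**Figure D5:**
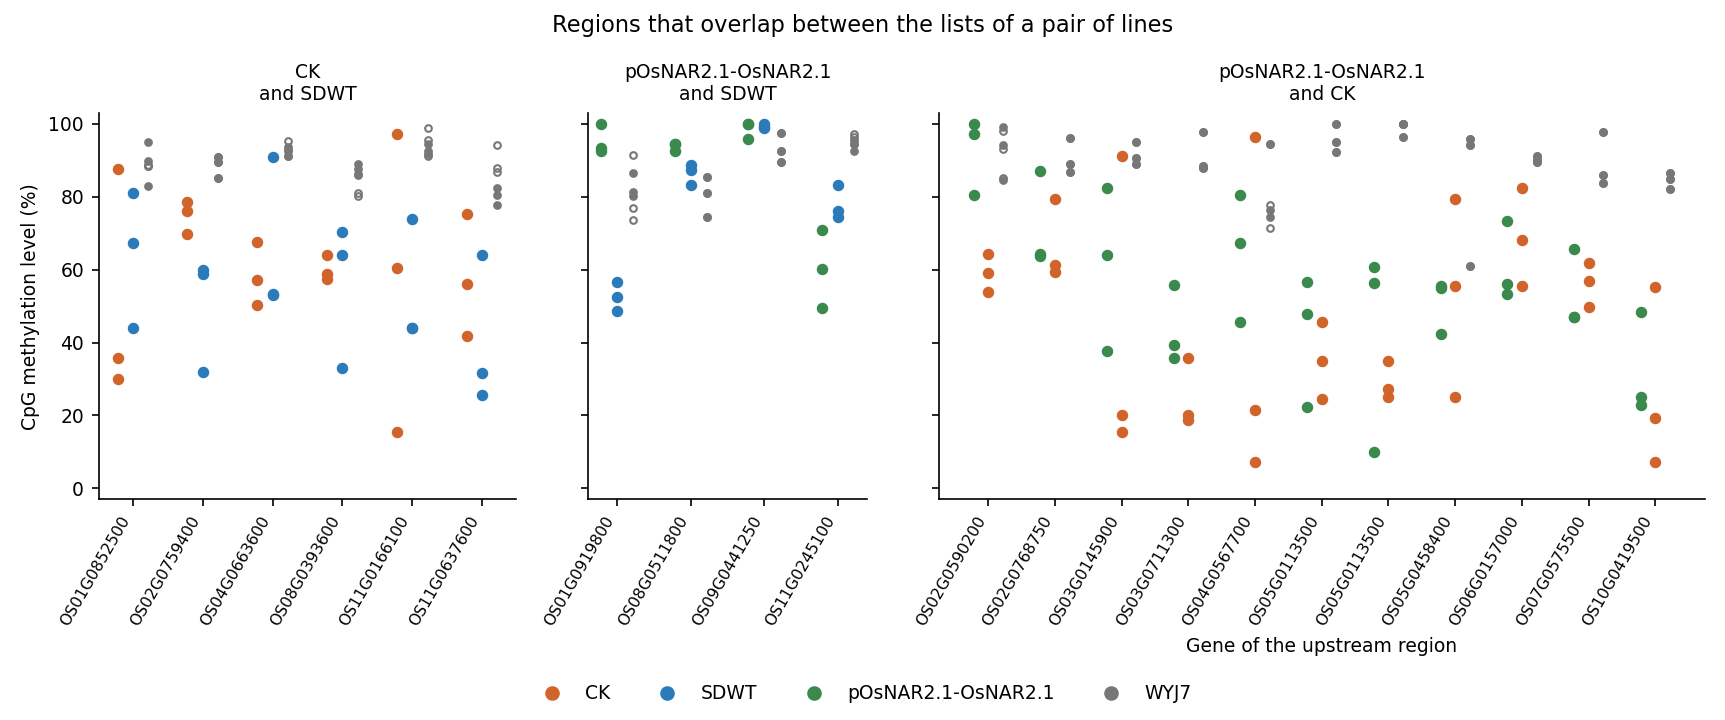
CpG methylation level in percent (y axis) in each library for regions that overlap between the lists of a pair of lines (x axis, gene of the upstream region), with the lines in colour left of WYJ7 in grey. Filled grey points are WYJ7 over the coordinates of the line named first and open ones over those of the other line. In the middle panel OS01G0919800 has pOsNAR2.1-OsNAR2.1 at 92.6% or more and SDWT at 56.6% or less.

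A further 5 regions overlapped a DMR of another line that was no member, because its coordinates gave a lower WYJ7 mean of 65.9% to 76.4%. At all 5 the mean was lower than WYJ7 in both lines, which is not read as a result, because all were called DMRs chosen through a high WYJ7 level. At OS09G0443000 it was 60.9% in SDWT, against 86.9% in WYJ7, and 40.6% in CK, against 68.3% in WYJ7. At OS03G0351100 it was 56.2% in pOsNAR2.1-OsNAR2.1, against 81.4% in WYJ7, and 25.2% in CK, against 73.1% in WYJ7. The others, OS02G0116400, OS07G0456500 and OS03G0626200, were shared by CK and SDWT, with means between 28.5% and 60.9% in the lines.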

How the data were processed

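DNA from 12 WGBS libraries was mapped by the authors to IRGSP-1.0 with Bismark 0.9.0. Cytosines of low depth were removed, and DMRs of each line against WYJ7 were called with methylKit and eDMR. The deposited level of a region is the mean of its cytosines in percent, 1 value per library, without normalization between libraries. Regions held at least 3 CpGs. The authors' comparison columns (mean difference, number of differentially methylated cytosines, p-value, q-value and direction) were not used. Regions tested but not called, and read depth, were not analysed here.

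Differences are the line mean minus the WYJ7 mean of the levels. The contrast of a line with WYJ7 chose the regions and was not tested. Lines were compared by two-sided exact permutation tests of library medians, with Benjamini-Hochberg adjustment over 3 pairs. Regions were named by a rule: the 6 largest losses per list with at least 5 CpGs and no overlap, members overlapping between lists, the 3 regions on either side of 80%, and genes with 2 or more members. The members and lists were chosen with earlier results of these data known. Scripts used Python 3.11.15, numpy 2.4.6, pandas 2.3.3 and matplotlib 3.10.9, and the functions were tested on simulated data. Other thresholds, a CpG minimum, merging within 300 bp, other overlap rules and each replicate left out were tried. The 3 MeDIP-seq samples were not analysed here. A planned description of gene groups and of sequence was not run, because no gene names matched and no genome was used.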

Additional observations from a re-analysis of the deposited data

Results flagged for a closer look

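The upstream region of OS01G0919800 moved in opposite directions in a pair of lines. It was 12.6 points higher than WYJ7 in pOsNAR2.1-OsNAR2.1, with all 3 libraries above the WYJ7 mean, and 28.1 points below WYJ7 in SDWT (a difference of -28.1), with all 3 libraries below it, so the effects lay 40.6 points apart. The difference of these effects was not tested, and the 2 regions share only part of their cytosines. Outliers were not looked for, because groups held 3 libraries.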

How the results depend on the processing

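The depth of each region is unknown and limits the precision of single levels, most of all in regions with 3 CpGs. Requiring a WYJ7 mean of at least 90% left 190 regions for CK, 35 for SDWT and 33 for the transgenic line. Requiring at least 5 CpGs left 104, 18 and 10 regions, of which 74, 16 and 8 did not overlap WYJ7, and put the median level at 65.0% in SDWT and 60.6% for pOsNAR2.1-OsNAR2.1. The mean over regions was 59.3% in SDWT. Keeping regions with a mean difference of at least 20 points, chosen after seeing the data, left 38 in pOsNAR2.1-OsNAR2.1, with a median level of 54.4%, and gave 55.2% in SDWT. Leaving out a WYJ7 replicate gave 347 to 362, 87 to 91 and 64 to 70 regions for CK, SDWT and the transgenic line. Leaving out a line replicate gave median levels of 56.6% to 64.9%, 60.7% to 61.5% and 65.1% to 66.5%, and leaving out any replicate gave 236 to 318, 67 to 75 and 39 to 44 regions without overlap. Leaving out a replicate cannot lower these last counts. Shares of the whole lists were not computed for the counts without overlap under these settings.

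Between lines, no alternative that was run changed the direction of a difference, but several made it smaller. Leaving out a shared region was not run. For pOsNAR2.1-OsNAR2.1 minus SDWT, single regions ranged from -17.7 points at OS11G0245100 to 42.7 at OS01G0919800, so they did not share a direction. Taking the mean over shared regions in place of the median gave 4.92 points for CK minus SDWT, 7.94 for pOsNAR2.1-OsNAR2.1 minus SDWT and 10.1 for pOsNAR2.1-OsNAR2.1 minus CK (exact permutation p = 0.7, 0.1 and 0.4). A reciprocal overlap of at least 50% gave 4.83, 3.35 and 15.4 points for these pairs (exact permutation p = 0.9, 0.2 and 0.4). Leaving out a replicate gave 0.736 to 14.2 points for CK minus SDWT (exact permutation p = 0.3 to 0.9), 11.1 to 14.0 for pOsNAR2.1-OsNAR2.1 minus SDWT (p = 0.1 throughout) and 8.07 to 25.1 for pOsNAR2.1-OsNAR2.1 minus CK (p = 0.1 to 0.6). With the replicate block (exact sign-flip test, smallest p 0.25), the differences of 7.48, 12.4 and 15.4 points had p = 0.5, 0.25 and 0.5. Deviations of same-numbered line and WYJ7 libraries correlated between -0.0947 and 0.0368 over the regions, so replicate numbers showed no pairing there. Between same-numbered libraries of 2 lines the correlations ran from -0.757 to 0.637. They rest on 4 to 11 shared regions, too few to decide whether replicate numbers pair the lines. At OS02G0590200 the transgenic difference of -0.13 points from WYJ7 turned to 5.92 without pOsNAR2.1-OsNAR2.1 replicate 2, to 0.693 without WYJ7 replicate 2 and to 3.11 without WYJ7 replicate 3, and leaving out any replicate gave -4.19 to 5.92, so its sign was not stable.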
